A study of Mus musculus with 2 samples.

Results

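The genes described here are the EGF family ligands Egf, Areg, Ereg, Btc, Hbegf, Tgfa and Nrg1 and the ErbB receptors Egfr, Erbb2 and Erbb3, measured in airway epithelium dissected from the lungs of mouse fetuses at embryonic stages E14.5 and E18.5. They were chosen by name: every non-control probe of the array whose gene name is one of these symbols, or a former symbol of one, belongs to the set. This gave 27 probes on 71 spots for 10 of 10 genes, out of 19748 genes named on the array. All 10 had a ratio, as had 17243 genes in all, but that of Ereg came from a probe on the strand opposite to the gene. The rule for the probes uses names alone, though the genes were proposed with results of these data known. The study, which looked for effectors of the ciliogenesis factor FOXJ1, compared the ages on 1 two-colour array with 1 sample each. The E14.5 sample (labelled with Cy3) and the E18.5 sample (labelled with Cy5) were both intralobular airway epithelium, cut with a laser from sections of 1 whole lung per age. The fetuses were wild-type CD-1 males, so both groups share strain, genotype and sex, and no treatment was given. RNA of each age was amplified in 1 round before labelling.

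The ligands of this family are made as membrane-anchored precursors, and proteases of the ADAM family cut them free at the cell surface. Egf, Areg and Tgfa bind EGFR, Btc, Ereg and Hbegf bind EGFR and ERBB4, and Nrg1 binds ERBB3 and ERBB4. Ligand binding makes receptors pair and phosphorylate each other. ERBB2 binds no ligand and ERBB3 has little kinase activity, so both signal through a partner. In developing lung the pathway is known for its part in airway branching, epithelial growth and the maturation of the alveolar epithelium.

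With 1 sample per age, no dye swap and no replicate, differences were read by size alone, with 2-fold as the threshold and no p-value. Dye and age cannot be told apart. Levels are normalized intensities in arbitrary units, and they compare the ages for 1 probe, never 1 probe with another. Ratios are log2 of E18.5 over E14.5. Probe spots had a median background-subtracted signal of 209 in the E14.5 channel and 282 in the E18.5 channel. The scanner software marked 75.2% and 78.6% of the probes in these channels as well above background. The median SD of the log2 ratio was 0.05 over repeated spots of a probe (245 probes) and 0.33 over different probes of a gene (6889 genes). The spread over spots is technical, and that over probes can also hold differences between transcripts. Both say nothing of differences between animals. By size, 2986 genes (17.3%) passed 2-fold upwards from E14.5 to E18.5 and 1738 (10.1%) downwards, and the median ratio of all genes was 0.06.

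All 8 epithelial markers (Cdh1, Epcam, Krt8, Krt18, Krt19, Nkx2-1, Cldn4 and Sox2) were well above background at both ages. By the 2-fold threshold 3 were higher and 1 lower, with 4 above 0 and 4 below. Their summed level was 273142 (E14.5) and 455125 (E18.5), mostly from the keratins Krt8, Krt18 and Krt19 at both ages. The ratio was below 0 for Cldn4 (-1.17), Epcam (-0.75), Nkx2-1 (-0.57) and Sox2 (-0.35). Markers of other cells were measured too, and the mesenchymal ones were all well above background. Of 10 mesenchyme and smooth muscle markers none was higher and 2 were lower (Acta2 and Myh11), with 4 above 0 and 6 below. Their summed level was 514884 (E14.5) and 446367 (E18.5). Acta2 had 192297 and 66996, while the collagens Col1a1 (0.32), Col1a2 (0.69) and Col3a1 (0.56) were above 0. Such sums follow the brightest probes. Of 6 endothelial markers 2 were higher (summed level 9918 and 86817), of 7 leukocyte markers 6 were higher (3784 and 15916), and of 5 mesothelial markers 2 were higher (5943 and 48400). The endothelial sum was mostly Kdr at E18.5 but not at E14.5 (71669 at E18.5, 4090 at E14.5). The mesothelial sum was mostly Msln at both ages (4975 and 43592). Of 6 measured nerve and Schwann cell markers 1 was higher (4206 and 4914). The alveolar type I markers, 3 of 5 higher, and the alveolar type II markers, 5 of 5 higher, had median ratios of 1.97 and 2.61. The part of any of these in the results below was not tested. In dissected tissue, fewer cells of a type and less RNA per cell cannot be told apart.

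Each probe is an oligonucleotide of 60 bases, and what it reads depends on where in the gene it lies. The sequences shown are probes in coding stretches, chosen to show how the receptor probes resemble each other and which domain a probe reads. Their coordinates are on mm8, the build named in the file headers, and their sequences come from the scanner output. Erbb2, Erbb3 and Erbb4 each had a probe in the same stretch of the tyrosine kinase domain, and these are set side by side, with the bases that are identical in all 3 in capitals. They lie at chr11:98250600-98250659 on the plus strand (Erbb2), chr10:127975088-127975147 on the minus strand (Erbb3) and chr1:68011750-68011809 on the minus strand (Erbb4).
Erbb2: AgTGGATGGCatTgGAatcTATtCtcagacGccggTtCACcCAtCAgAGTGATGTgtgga
Erbb3: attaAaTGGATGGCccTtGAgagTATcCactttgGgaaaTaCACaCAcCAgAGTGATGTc
Erbb4: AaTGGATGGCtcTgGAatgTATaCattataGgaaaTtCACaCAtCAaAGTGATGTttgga
Of 56 bases aligned in all 3 probes, 33 were identical. By pair, the identity was 62.5% between Erbb2 and Erbb3, 70% between Erbb2 and Erbb4 and 78.6% between Erbb3 and Erbb4. Whether transcripts of 1 receptor bind the probe of another was not tested.

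A second Erbb3 probe overlaps the kinase probe and continues across an intron into the exon before it, at chr10:127975108-127975396 on the minus strand. The capitals mark the 40 bases that both Erbb3 probes share.
Erbb3, upstream neighbour: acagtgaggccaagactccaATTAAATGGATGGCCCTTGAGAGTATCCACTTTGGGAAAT
These neighbours are therefore not independent readings of the gene.

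For Nrg1 the coding probes of most use lie at the stretch for the EGF-like domain, the part that binds the receptors. The first lies within it, and the next begins at its end and reads on beyond it. The first is at chr8:33315254-33315313 and the next at chr8:33297144-33303644, both on the minus strand, and the latter spans 6501 bases of genome because it joins exons.
Nrg1, first: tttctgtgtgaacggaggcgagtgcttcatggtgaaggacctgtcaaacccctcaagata
Nrg1, next: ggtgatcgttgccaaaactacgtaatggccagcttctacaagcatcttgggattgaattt
The Areg probe, the only one of that gene, lies at chr5:92216264-92216323 on the plus strand, in the stretch for the precursor protein. The Egfr probe at chr11:16783545-16783604, on the plus strand, reads the extracellular part of the receptor.
Areg: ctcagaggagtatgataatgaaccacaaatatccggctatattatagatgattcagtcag
Egfr: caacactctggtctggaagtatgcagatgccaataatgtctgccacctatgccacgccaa

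Of the 10 genes, Btc alone was at least 2-fold higher at E18.5, none was lower by that much, and the other 9 stayed within the threshold. Over all genes 17.3% were higher and 10.1% lower by that threshold, so these counts are near the background for 10 genes. The ratio was below 0 for 6 genes and above 0 for 4, with a median of -0.39 beside 0.06 over all genes. Among the 4 is Ereg, whose ratio came from a probe on the strand opposite to the gene. The median over the 10 genes was -0.61 with the scanner software's ratio, -0.60 with the authors' value table and -0.16 with the median over the probes of a gene. Where only probes of current RefSeq transcripts were read, Ereg had no ratio. The other 9 genes then had a median of -0.44, with 6 below 0 and 3 above. At both ages 24 of the 27 probes were well above background, and 3 were so at neither. Among the 24, the opposite-strand Ereg probe included, 15 were below 0 and 9 above. The 2-fold threshold was passed upwards by 3 probes and downwards by 2, beside 14.7% and 9.17% of all gene probes with a ratio. The probes past it belong to Btc, Erbb3 and Egfr, and of these genes only Btc passed it by its brightest probe.

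**Figure D1:**
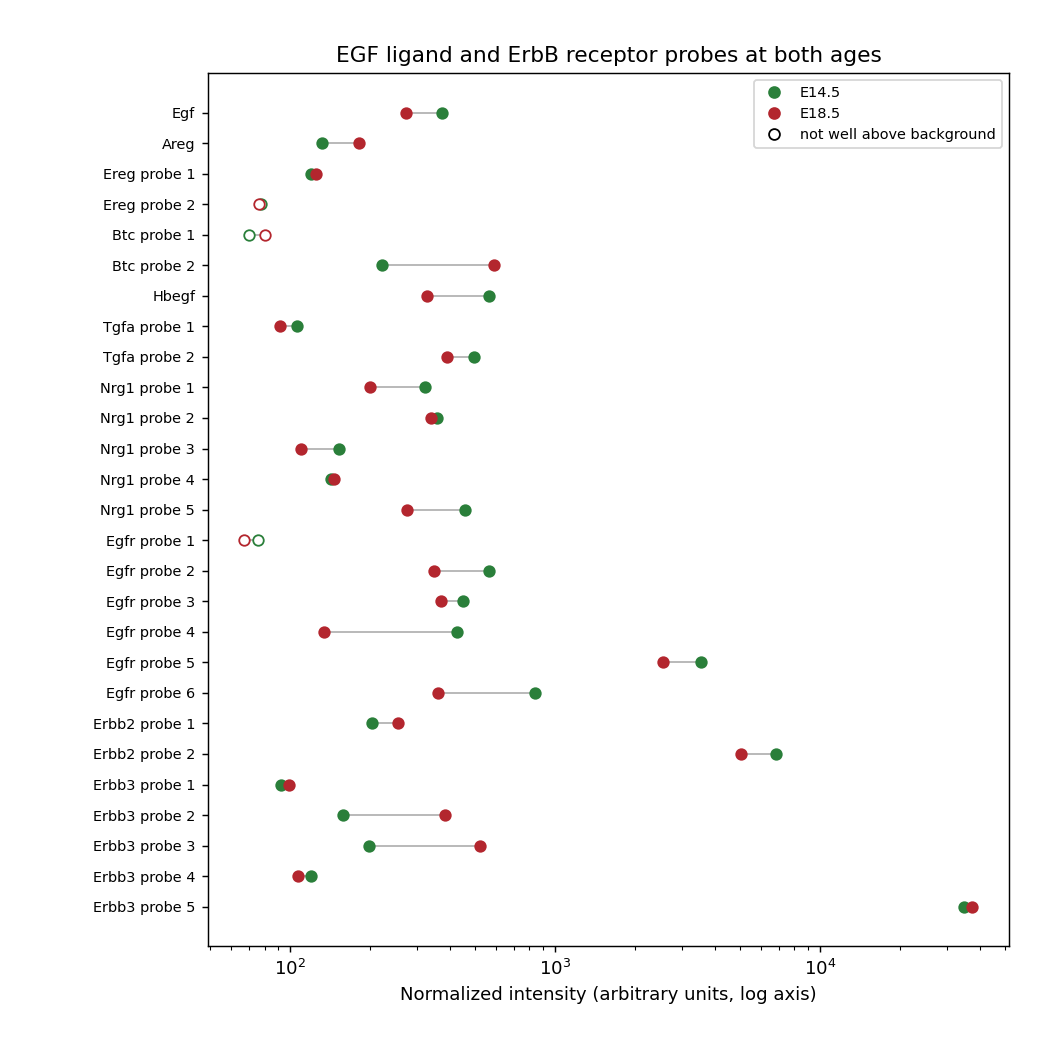
Normalized intensity of each of the 27 probes (log axis, arbitrary units), E14.5 in green and E18.5 in red, joined by a line; open circles mark a probe not well above background. The Btc probe above background stands at 222 and 590, the Egfr probe with the widest gap at 425 and 135, and the brightest probes of Egfr, Erbb2 and Erbb3 differ by less than 2-fold between the ages.

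Betacellulin (Btc), a ligand of EGFR and ERBB4, had the highest ratio of the ligands. Its probe at chr5:92433122-92433181 (minus strand) had an intensity of 222 at E14.5 against 590 at E18.5. The log2 ratio was 1.41, a 2.66-fold higher intensity at E18.5, and 88.3% of all genes had a lower ratio. The scanner software's own ratio was 1.58. This probe has 1 spot, so no spread over spots exists, and the spread between probes of other genes does not measure its error. A second Btc probe, 1023 bases away, was not well above background at either age (69.7 and 80.0) and gives no second reading.

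Amphiregulin (Areg), an EGFR ligand that lies beside Btc on chromosome 5, had intensities of 132 (E14.5) and 182 (E18.5). The ratio of 0.46, or 1.38-fold, lay within 2-fold, and 69.3% of genes had a lower one. The scanner software gave 0.66 for the single spot.

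For epiregulin (Ereg), a ligand of EGFR and ERBB4, the files hold probes at different places on chromosome 5. The probe of the Ereg transcript, at chr5:92167833-92167894 on the plus strand, was not well above background at either age (77.8 and 76.6). The other probe that carries the name lies 40685 bases away on the minus strand, opposite to the gene, at chr5:92127088-92127147. It had 120 at E14.5 against 125 at E18.5, a ratio of 0.06, and the scanner software gave -0.05. The ratio listed for Ereg is thus that of a probe on the other strand, and no level of the Ereg transcript itself was measured.

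Epgn, Ereg, Areg and Btc follow each other on chromosome 5 with 0 protein-coding genes between each pair, by the order in the RefSeq annotation of assembly GRCm38.p6. Ratios of the measured genes lay on both sides of 0: Epgn had -0.62, Areg 0.46 and Btc 1.41. Each rests on 1 spot, and under the main setting only Btc passed 2-fold.

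Heparin-binding EGF-like growth factor (Hbegf), which binds EGFR and ERBB4, had the lowest ratio of the ligands under the main setting, next to Nrg1, which was as low with the scanner software's ratio. Its 1 probe went from 564 at E14.5 to 328 at E18.5. The log2 ratio was -0.78, a 1.72-fold lower intensity, and 14.0% of genes had a lower ratio. The scanner software gave -1.16 for the same spot, past the 2-fold threshold. In its scaling 15.5% of all genes were 2-fold lower, in place of 10.1%, and the median of all genes shifted by -0.11. Relative to that median, the ratio was -0.85 after loess and -1.11 in the scanner software's scaling.

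Epidermal growth factor (Egf) was read on 10 spots of the probe at chr3:129669930-129669989 (minus strand). At E14.5 the spots lay between 333 and 403 with a median of 383, and at E18.5 between 228 and 297 with a median of 278. The spots of the ages did not overlap. Like the repeated spots of Tgfa, Egfr and Erbb2 below, they re-read the same samples on 1 array, so this shows technical precision alone. The ratio was -0.46 ± 0.05 (SD, n = 10 spots), 1.38-fold lower at E18.5, and every spot lay between -0.55 and -0.37. The scanner software gave -0.81.

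Transforming growth factor alpha (Tgfa), a ligand of EGFR, was also read on 10 spots, at chr6:86240478-86240537 (plus strand). The E14.5 spots lay between 449 and 564 (median 482) and the E18.5 spots between 348 and 433 (median 393), again without overlap. The ratio was -0.34 ± 0.06 (SD, n = 10 spots), 1.26-fold lower. A dimmer probe 2587 bases upstream, at 106 and 91.9, gave -0.20. The range of 0.14 between the Tgfa probes was smaller than that of most genes with several probes: 15.5% of 6889 such genes had a smaller one.

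Neuregulin 1 (Nrg1), the ligand of ERBB3 and ERBB4, had 5 probes along the minus strand of chromosome 8, all well above background at both ages. The probe in the EGF-like domain printed first above had 323 at E14.5 against 200 at E18.5, a ratio of -0.69. The exon-joining probe after it had 153 and 110, a ratio of -0.48. The brightest and most 3′ probe, at chr8:33281271-33281330, had 456 and 275, a ratio of -0.73 or 1.66-fold lower, and stands for the gene. The record of this probe is not a current RefSeq transcript. Where only probes of current RefSeq transcripts were read, Nrg1 had -0.69. These 3 probes were lower at E18.5, while the other 2 were close to 0.
The probe at chr8:33311045-33311104, also not of a current RefSeq transcript, had 357 and 340 (-0.07), and the probe at chr8:33288228-33288287 had 142 and 147 (0.04). The median over the 5 probes was -0.48. The scanner software gave -1.10, -1.15 and -1.16 for the 3 lower probes, each past 2-fold. The range of 0.77 between probes was larger than that of 66.4% of genes with several probes.

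**Figure D2:**
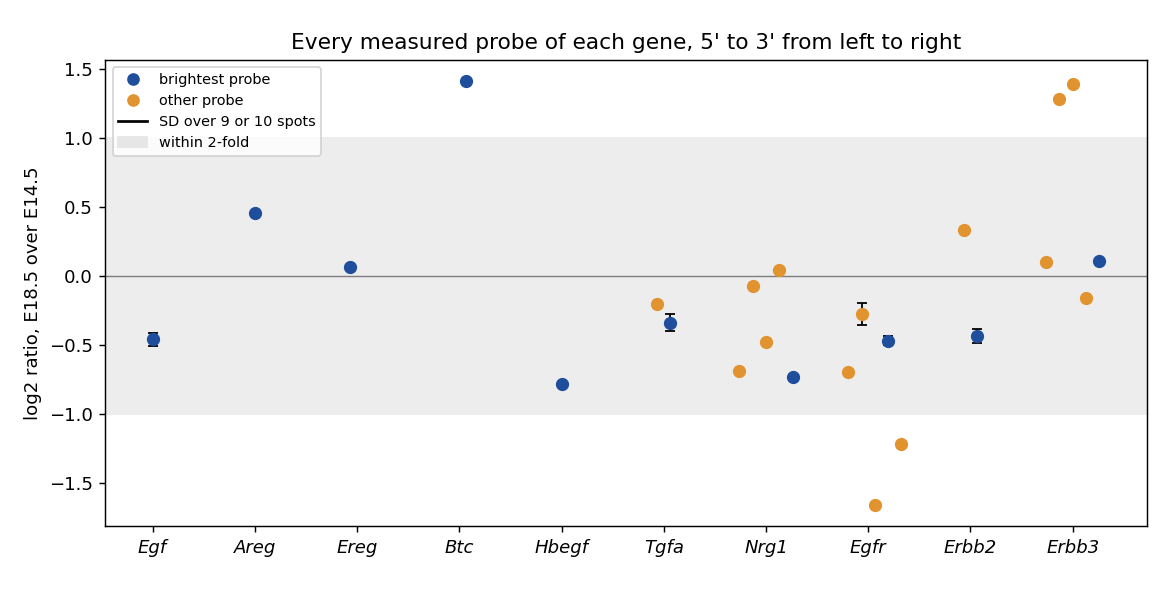
Log2 ratio of E18.5 over E14.5 for each probe with a ratio, in order along each gene from 5′ to 3′; blue points are the brightest probe, orange points the others, bars the SD over 9 or 10 repeated spots, and the grey band the range within 2-fold. The 5 Egfr probes are all below 0, between -1.66 and -0.28, and the Erbb3 probes run from -0.16 to 1.39.

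Egfr, the receptor of most of these ligands, was lower at E18.5 on 5 of 5 measured probes, by amounts that differed widely. Along the plus strand of chromosome 11, the probe in the extracellular part shown above had 565 at E14.5 against 349 at E18.5, a ratio of -0.69. The next, at chr11:16787385-16787444, had 10 spots between 412 and 475 at E14.5 (median 457) and between 328 and 398 at E18.5 (median 375), with a ratio of -0.28 ± 0.08 (SD, n = 10 spots). Both are probes of the transcript NM_007912, and both lay within 2-fold.
The remaining probes lie further 3′. The one at chr11:16812181-16812240, of the transcript NM_207655, had 425 and 135, a ratio of -1.66 or 3.16-fold lower, and only 3.51% of all genes had a lower ratio. The scanner software gave -2.63 for its single spot. Another probe of NM_207655, 1574 bases downstream at chr11:16813815-16813874, is the brightest of the gene. Its 9 spots lay between 2963 and 3879 at E14.5 (median 3587) and between 2198 and 2789 at E18.5 (median 2618), with no overlap. The ratio was -0.47 ± 0.03 (SD, n = 9 spots), 1.38-fold lower, and 1 more spot was left out as an outlier. The last probe, at chr11:16817630-16817689, had 842 and 363, a ratio of -1.22 or 2.32-fold lower. Its record is not a current RefSeq transcript of the gene.
The median over the 5 probes was -0.69 and their SD 0.57. Their range of 1.38 exceeded that of 88.9% of the 6889 genes with several probes. The probe at chr11:16655638-16655697, 127847 bases upstream of the others, was not well above background at either age (75.9 and 67.2).

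Erbb2, the receptor that binds no ligand and partners the others, was read on 10 spots at chr11:98252879-98252938 (plus strand). They lay between 5699 and 7508 at E14.5 (median 6966) and between 4407 and 5508 at E18.5 (median 5183), without overlap. The ratio was -0.44 ± 0.05 (SD, n = 10 spots), 1.35-fold lower at E18.5. The kinase domain probe shown above, 2219 bases upstream, had 203 and 255, a ratio of 0.33, so the probes of the gene had opposite signs. Their median was -0.05, and no direction can be given for Erbb2 apart from its probe.

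Erbb3, the neuregulin receptor that relays chiefly to PI3-kinase, had 5 measured probes on the minus strand of chromosome 10, and the outcome depended on which was read. The kinase domain probe had 199 at E14.5 against 522 at E18.5, a ratio of 1.39 or 2.62-fold higher. Its overlapping neighbour had 158 and 383, a ratio of 1.28 or 2.43-fold higher, and the scanner software gave 1.64 and 1.69 for the pair. These probes share 40 bases, so they count as 1 reading of that stretch.
The other 3 probes lay within 2-fold. The probe nearest the 5′ end, at chr10:127987990-127988049, had 92.7 and 99.3 (0.10), and the probe at chr10:127973174-127973233 had 119 and 107 (-0.16). Both are dim: the Btc probe not well above background had 69.7 and 80.0. The offset used in the processing pulls such dim ratios towards 0, and the scanner software gave 0.32 and -0.39. The brightest, at chr10:127970642-127970701, had 34908 and 37553 (0.11), and by the rule of the brightest probe it stands for the gene. It carries the name Erbb3 through the record XM_972868, which is not among the current RefSeq accessions of the gene. It lies 2472 bases downstream of the next Erbb3 probe and 7597 bases from the nearest probe of the neighbouring gene Pa2g4. Where only probes of current RefSeq transcripts were read, Erbb3 had a ratio of 1.39 and joined Btc past 2-fold, 2 of 9 genes with a ratio, beside 17.2% of all genes in that setting. The range of 1.55 between the Erbb3 probes exceeded that of 91.6% of genes with several probes.

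The choice of scaling and of probe changed which genes passed 2-fold. With the scanner software's ratio Hbegf and Nrg1 were lower by more than 2-fold, 2 of 10, beside 15.5% of all genes. The authors' value table gave the same count beside 15.5%, but it is the scanner's processed signal rescaled and no separate reading. Where each gene was read by its probe farthest from 0, Btc and Erbb3 were higher, beside 19.1% of all genes, and Egfr was lower, beside 11.9%.

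**Figure D3:**
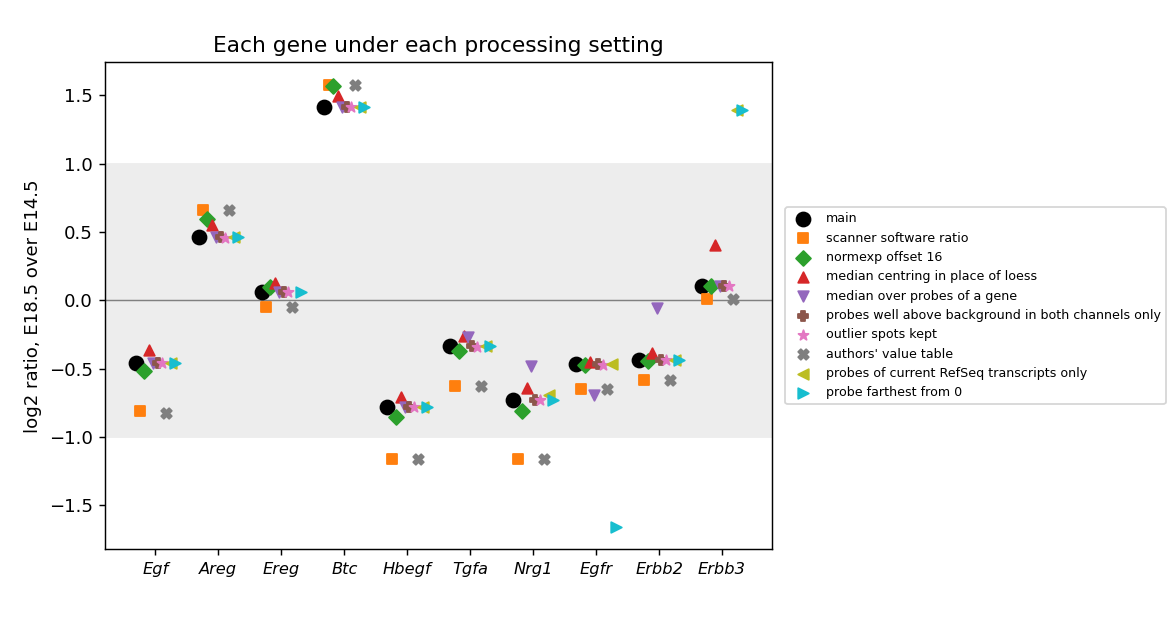
Log2 ratio of each of the 10 genes under the main setting (black circle) and 9 alternatives to the processing, with the range within 2-fold in grey. Btc stays above 1 in each, between 1.41 and 1.58, always on the same 1 spot. Hbegf and Nrg1 pass below -1 with the scanner software's ratio and the authors' value table, and Erbb3 reaches 1.39 and Egfr -1.66 where another probe is read.

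Of the 5 other genes of the family, 3 gave a ratio, and none was 2-fold higher or lower. Erbb4, the remaining receptor, was read by a probe at chr1:67975925-67977153 on the minus strand, with 4630 at E14.5 against 3489 at E18.5, a ratio of -0.41. The record behind this probe is not a current RefSeq transcript of the gene. The 3 probes of its current transcript, the kinase probe shown above among them, were not well above background at either age. The bright probe shares a stretch of 22 bases with one of them. The ratio listed for Erbb4 is thus that of the bright probe alone. Epgn, a ligand of EGFR, had 233 and 152, a ratio of -0.62. Nrg4, a ligand of ERBB4, had 128 and 219, a ratio of 0.77. The scanner software put these at -1.06 and 1.27, past 2-fold in opposite directions. The Nrg3 probe was not well above background at either age, and no probe carries the name Nrg2.

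Genes for the release of ligands from the membrane had ratios on both sides of 0. Of 11 measured, 2 were at least 2-fold higher and 3 lower, beside 17.3% and 10.1% of all genes, with a median of 0.39. Timp3, an inhibitor of ADAM17, had the highest ratio, 12009 at E14.5 against 59804 at E18.5 (2.32). Rhbdl2, a rhomboid protease, had 115 and 231 (1.00), at the threshold itself. Below the threshold, Rhbdf2, which carries ADAM17 to the surface, had 0.91, with another probe at 1.73, and Adam9 had 0.64. Adam17, whose product is the main sheddase of Tgfa, Areg and Hbegf, was the list's median gene at 2012 and 2628 (0.39). It is named outside the rule for named genes, with its value known.
At the other end, Adam19 had 2207 and 621 (-1.83), although another of its probes gave -0.01. Adam12 had 299 and 98.7 (-1.60). Adam10, the main sheddase of Btc and Egf, had 453 and 208 (-1.12). Frmd8, a partner of the iRhom proteins, was within 2-fold at -0.46.

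Of 25 genes of receptor turnover and feedback, 19 were above 0 and 6 below, with a median of 0.31 beside 0.06 over all genes. This depended on the scaling: with the scanner software's ratio and with the authors' value table, 13 were above and 12 below. The median was 0.069 in both, which rest on the same processed signals. By the 2-fold threshold 1 was higher and none lower, beside 17.3% and 10.1% of all genes. That gene was Spry4, an inhibitor of Ras signalling, with 139 at E14.5 against 279 at E18.5 (1.00), again at the threshold. Cblb, a ubiquitin ligase for receptors, had 0.98. The phosphatase Ptpn1 had 0.97 on its brightest probe and 0.06 on another. Dusp6, a phosphatase of ERK, had 0.63. Lowest were Spred2, an inhibitor of Raf, at -0.80 with another probe at 1.13, the ERBB2 binding protein Erbin at -0.30, the phosphatase Ptprj at -0.23 and the CBL adaptor Sh3kbp1 at -0.06.

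Of 31 signal relays, 1 was at least 2-fold higher and 4 lower, beside 17.3% and 10.1% of all genes, with a median of -0.06 that was 0.031 with median centring. Stat3, a transcription factor that the receptors activate, had 4283 at E14.5 against 29960 at E18.5 (2.81), while its other probe gave 0.28. The adaptor Grb2 had 0.91, with another probe at 1.04, and the PI3-kinase subunit Pik3cb had 0.69. The lower ones included the PI3-kinase subunit Pik3r3 (-1.79), the phospholipase Plcg1 (-1.08) and the kinase Src (-1.02). Each of these 3 had another probe closer to 0 or above it, at -0.60, 0.38 and -0.22.

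Response genes are transcribed soon after growth factor signals of many kinds, not those of ErbB receptors alone. Of 17 measured, 2 were at least 2-fold higher and 5 lower, beside 17.3% and 10.1% of all genes, with a median of -0.26. Ier3, an early response gene, had 947 at E14.5 against 5490 at E18.5 (2.54), and the AP-1 subunit Junb had 8515 and 24621 (1.53). Klf6 had 0.89, with another probe at 1.51, and Plaur, the urokinase receptor, 0.75.
The lower genes included the ETS factor Etv5, with 1965 and 286 (-2.78), and Myc, with 3195 and 558 (-2.52). The AP-1 subunit Jun had -1.97, Egr1 -1.74 and the ETS factor Etv4 -1.19. Etv4 was named after its value was seen. No probe carries the name Dusp5.

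**Figure D4:**
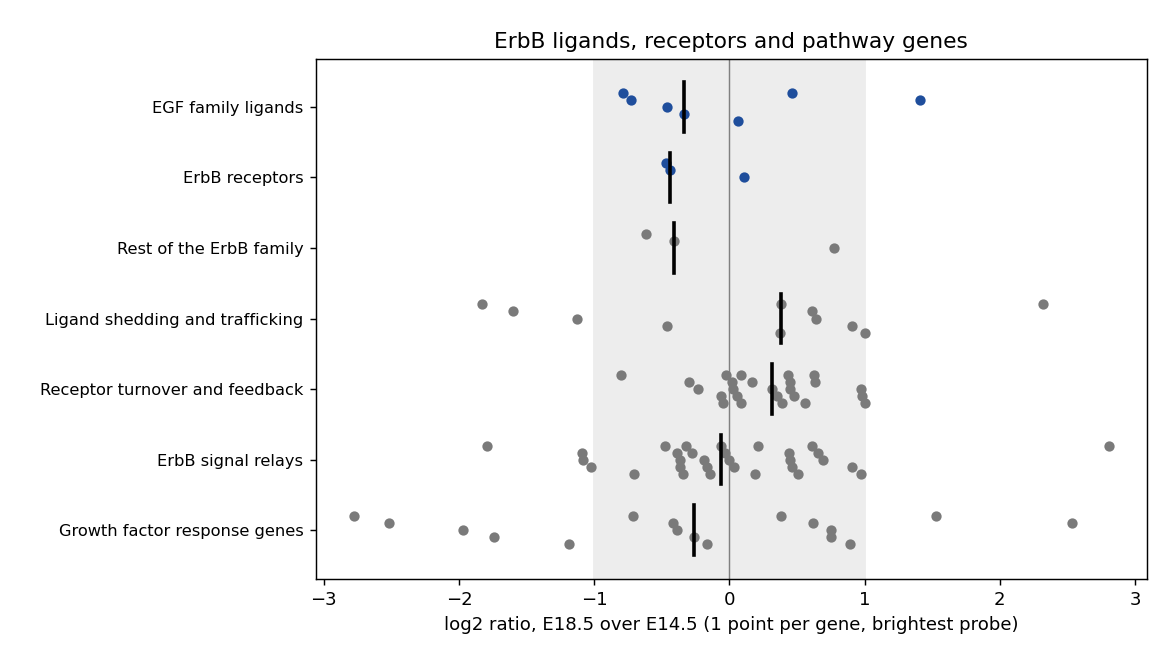
Log2 ratio of E18.5 over E14.5 for each ligand and receptor (blue) and each other measured gene of the pathway (grey), 1 point per gene by its brightest probe, with the median of each list as a black line and the range within 2-fold in grey. The medians lie between -0.44 and 0.39, and 19 of the 25 turnover and feedback genes lie right of 0 in this scaling, against 13 with the scanner software's ratio.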

How the data were processed

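The scanner tables hold linear mean and background intensities, processed intensities and a log10 ratio, deposited by the authors; per the submitters' processing notes they come from Agilent Feature Extraction 9.5.3.1. Both files were identical in 115 of 115 columns and therefore count as 1 array, with E14.5 in the green and E18.5 in the red channel. The authors' value table, in linear intensities, proved to be the processed signal of each channel times 0.339 with a floor of 15 (column medians 129 and 130.2), uncentred. Deposited 0 or 1 scores flag outliers, saturation (0 probes) and signal well above background.

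In limma 3.58.1 (R 4.3.3), mean signals were corrected with normexp (offset 50) and scaled with loess (4 iterations, span 0.3), with controls and outliers at weight 0. The offset pulls dim ratios towards 0. Outlier spots (160) were dropped and repeated spots averaged. The table of RefSeq genes (GRCm38.p6) named 33099 of 41170 probes. A gene is its brightest probe well above background in at least 1 channel. The genes and lists were chosen with earlier results of these data known. Named genes are all 10 members, the other family genes, and the 4 highest and 4 lowest of each of the other lists whose sign the scanner software's ratio shares; some are not reported here, and Adam17 and Etv4 were added after their values were seen. Of 9 other ways of processing, 2 were added after seeing the data.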

Additional observations from a re-analysis of the deposited data

How the results depend on the processing

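No paired analysis was possible because each age has 1 sample. Btc was at least 2-fold higher under the main setting and all 9 alternatives. All of these re-read 1 spot of 1 probe, so settings that change only the choice of probe could not move its value. The count of ligand and receptor genes higher became 2 (Btc and Erbb3) with probes of current RefSeq transcripts only and with the probe farthest from 0, both chosen after seeing the data; in the latter 1 (Egfr) was lower. With the scanner software's ratio and with the authors' value table, which rest on the same processed signals, 2 (Hbegf and Nrg1) were lower. Those settings shifted the median of all genes by -0.11 and -0.13 and lowered the share of higher among 2-fold calls from 63.2% to 54.8% and 53.2%, and 2690 genes in place of 1738 were lower by the scanner software's ratio. Under the same settings 1 other family gene was higher (Nrg4), 1 was lower (Epgn), and 1 turnover gene was lower (Spred2). With probes of current RefSeq transcripts only, the median of the other family genes was 0.078. Higher shedding genes became 1 with outliers kept. Higher turnover genes became 2 with an offset of 16, with current transcripts only and with the farthest probe, and 3 with median centring. Higher relays became 3 with median centring, 2 with the median over probes or current transcripts only, and 4 with the farthest probe; lower relays became 1 with the median over probes. The cause of these shifts was not tested. By the scanner software's ratio Spred2 had -1.06, past 2-fold lower, while its probe farthest from 0 was past 2-fold higher (1.13). Ereg, read by the opposite-strand probe, lay between -0.05 and 0.13. No saturated probe limits the bright end; at the dim end 3 of 27 probes gave no ratio.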
